A study of Solanum lycopersicum with 30 samples.

Results

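Transcript signals of 7 genes for DNA replication and the cell cycle were read in roots of field-grown tomato (Solanum lycopersicum). The genes are PCNA, P18, CycA1, CycA2, CycA3, CycB2 and cdc2A-2. They were chosen by function among the genes that the annotation of the array names, and each was found by its exact symbol on 1 probe set of the Affymetrix tomato array. They make up 7 of the 802 genes with a symbol and 7 of the 10038 probe sets that are not controls. The arrays, 30 in all, fall into 6 groups of 5 samples that the submitters call biological replicates. The groups cross the wild type (WT) and rmc, a mutant known for reduced colonization by mycorrhizal fungi, with 3 injections into a soil patch, namely water, ammonium at a lower level (low N) and ammonium at a higher level (high N). All plants were 8 weeks old when moved to field soil, grew there for 5 weeks, and gave patch roots 24 h after the injection. Low N and high N are labelled 10 µM and 100 µM in WT and 6.5 ppm and 65 ppm in rmc, so a comparison of the N response between genotypes also compares those labelled doses. The rmc samples stand for 1 mutant, and the sources used here do not say whether a sample pooled several plants.

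Root growth depends on the meristem at the tip, where cells pass in turn through a gap, DNA synthesis (S phase), a further gap and mitosis. PCNA is the sliding clamp that holds DNA polymerase on the template, and P18 encodes dUTPase, which keeps uracil out of new DNA. Cyclins activate cyclin-dependent kinases and are made and destroyed as the cycle turns: A-type cyclins act in S phase and towards mitosis, and B-type cyclins such as CycB2 act at mitosis. The A-type kinase encoded by cdc2A-2 is the catalytic partner, and in plants such kinases are present for much of the cycle and also in cells that have stopped dividing.

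The values are log2 MAS5 signals that the authors scaled so that the 2% trimmed mean of each array is about 500, which hides any change common to all transcripts. Each member exceeded the 95th percentile of 23 negative-control probe sets on 30 of 30 arrays. CycB2, with a mean log2 signal of 4.75, lay under the limit of 5.61 below which the lowest 25% of probe sets were left out of the main test. The other 6 members were among the 7528 probe sets tested, and CycB2 is given from a fit without that limit. On each array 88.0% to 93.0% of probe sets exceeded that percentile, and the median correlation of an array with the others of its group ran from 0.946 to 0.981. Of 6 root marker genes found, 5 read above the negative controls on every array. Among them was TIP, the RB7 aquaporin gene, at a mean log2 signal of 12.12. The other root marker, FRO1, at a mean of 2.88, read above the negative controls on 17 of 30 arrays. Of 5 green-tissue genes, 4 read above the negative controls on every array, with PSBR at 10.10. The light-harvesting gene CAB5 did on 8 of 30 arrays.

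PCNA was higher in WT roots with high N than with water. Its log2 signal in WT was 8.53, 8.48, 8.45, 8.98 and 8.90 on the 5 water arrays (replicates 1 to 5), 8.71, 9.45, 9.24, 8.64 and 9.95 on the low N arrays and 9.47, 9.89, 9.18, 9.60 and 10.12 on the high N arrays. Every high N array read above every water array, and low N spanned both. In rmc, PCNA was 8.19, 8.41, 8.21, 9.78 and 9.42 with water, 8.74, 8.32, 8.72, 8.91 and 8.87 with low N and 8.34, 10.26, 8.65, 8.74 and 9.27 with high N. Replicates 4 and 5 of rmc water stood well above the other water arrays, and replicate 2 of rmc high N was the highest of all 30. The means were 8.67 ± 0.25 (SD, n = 5), 9.20 ± 0.55 and 9.65 ± 0.37 for WT with water, low N and high N, and 8.80 ± 0.75, 8.71 ± 0.23 and 9.05 ± 0.75 for rmc in the same order.

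P18, the dUTPase gene, varied far more from sample to sample. In WT its log2 signal was 7.15, 7.66, 7.01, 8.50 and 7.78 with water, 7.59, 9.23, 8.63, 7.03 and 9.08 with low N and 9.17, 9.44, 8.03, 9.06 and 9.77 with high N. Replicate 3 was the lowest high N array and lay under the highest water array, replicate 4, so the groups overlapped. In rmc it was 6.42, 6.12, 6.76, 9.39 and 8.87 with water, 8.36, 6.83, 7.74, 8.09 and 5.83 with low N and 7.31, 10.02, 7.37, 8.25 and 8.76 with high N. The rmc water arrays again split into replicates 4 and 5, which were high, and replicates 1 to 3, which were low. Group means ran from 7.37 ± 1.04 in rmc low N to 9.09 ± 0.65 in WT high N (SD, n = 5).

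**Figure D1:**
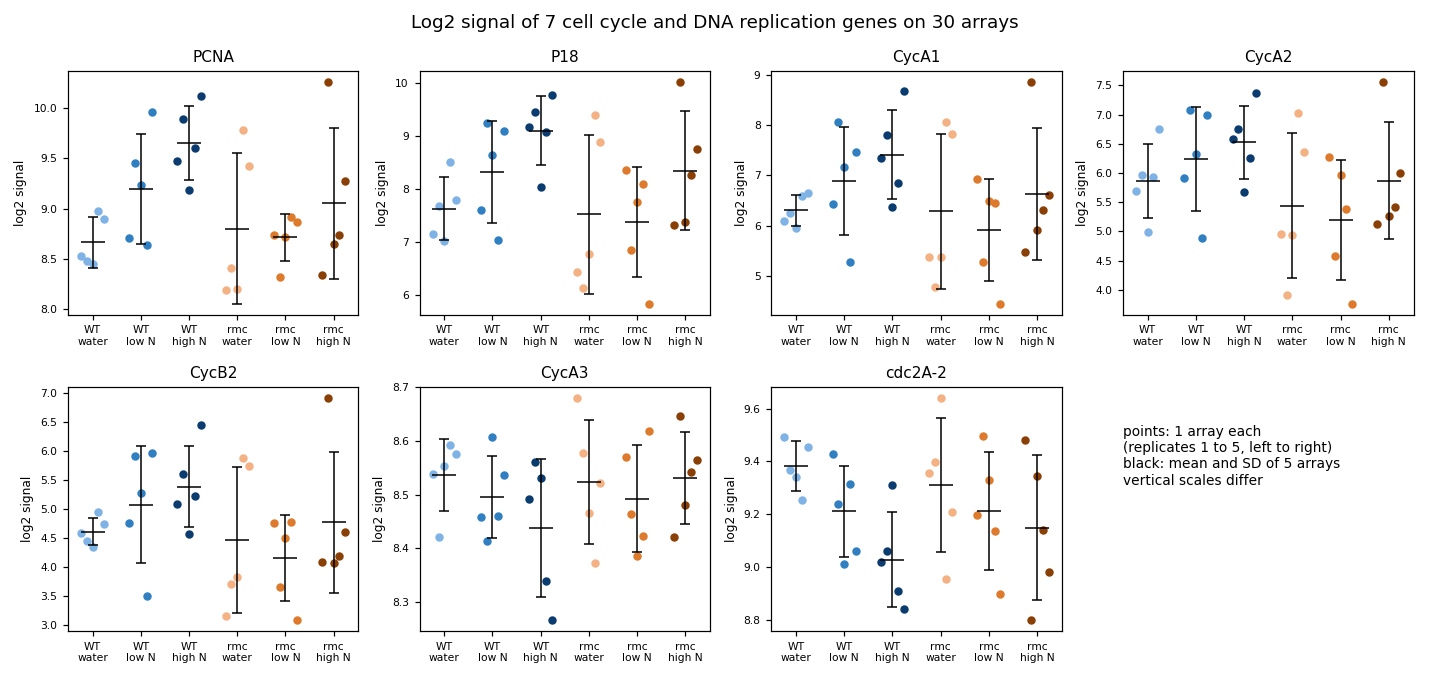
Log2 signal (vertical axes, with different scales) of the 7 genes in the 6 groups (horizontal axes). Points are arrays, replicates 1 to 5 from left to right, and black marks show the mean and SD of 5; PCNA in WT high N lies between 9.18 and 10.12, above all WT water arrays, while CycA3 stays between 8.27 and 8.68 throughout.

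The cyclin gene CycA1 had the widest range of the 7. Its WT values were 6.08, 6.26, 5.95, 6.58 and 6.65 with water, 6.43, 8.07, 7.17, 5.28 and 7.46 with low N and 7.34, 7.81, 6.37, 6.85 and 8.69 with high N. Water arrays sat close together, and high N arrays reached from within the water range to far above it. The rmc values were 5.37, 4.78, 5.38, 8.07 and 7.82 with water, 6.92, 5.28, 6.48, 6.44 and 4.44 with low N and 5.46, 8.86, 5.90, 6.31 and 6.60 with high N. The means were 6.31 ± 0.31, 6.88 ± 1.07 and 7.41 ± 0.89 for WT and 6.28 ± 1.54, 5.91 ± 1.02 and 6.63 ± 1.32 for rmc, and all 3 groups overlapped within each genotype.

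Another A-type cyclin gene, CycA2, had its extremes on the same arrays. In WT it read 5.68, 5.97, 4.99, 5.93 and 6.75 with water, 5.92, 7.08, 6.33, 4.88 and 6.99 with low N and 6.59, 6.76, 5.67, 6.25 and 7.36 with high N. In rmc it read 4.96, 3.92, 4.94, 7.03 and 6.35 with water, 6.27, 4.58, 5.96, 5.38 and 3.76 with low N and 5.12, 7.56, 5.26, 5.41 and 6.00 with high N. Replicate 2 of rmc high N was the highest array and replicate 5 of rmc low N the lowest, as for CycA1. The means were 5.87 ± 0.63, 6.24 ± 0.90 and 6.52 ± 0.63 for WT and 5.44 ± 1.24, 5.19 ± 1.03 and 5.87 ± 1.00 for rmc.

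CycB2, the mitotic cyclin gene, was dim but followed the same arrays. The WT log2 signals were 4.59, 4.46, 4.35, 4.95 and 4.74 with water, 4.76, 5.91, 5.27, 3.50 and 5.96 with low N and 5.10, 5.61, 4.57, 5.22 and 6.45 with high N. Those of rmc were 3.15, 3.71, 3.84, 5.89 and 5.74 with water, 4.76, 3.67, 4.51, 4.77 and 3.09 with low N and 4.09, 6.91, 4.07, 4.20 and 4.61 with high N. Replicate 2 of rmc high N was the highest of the 30 and replicate 5 of rmc low N the lowest. Means ran from 4.16 ± 0.75 in rmc low N to 5.39 ± 0.70 in WT high N.

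CycA3, also annotated as an A-type cyclin gene, barely varied. Its 30 values lay between 8.27 and 8.68, a range of 1.33-fold against 21.4-fold for CycA1. In WT the log2 signal was 8.54, 8.42, 8.55, 8.59 and 8.58 with water, 8.46, 8.41, 8.61, 8.46 and 8.54 with low N and 8.49, 8.56, 8.53, 8.34 and 8.27 with high N. In rmc it was 8.68, 8.58, 8.47, 8.37 and 8.52 with water, 8.57, 8.46, 8.38, 8.42 and 8.62 with low N and 8.42, 8.65, 8.48, 8.54 and 8.56 with high N. All groups overlapped, and their means lay between 8.44 ± 0.13 in WT high N and 8.54 ± 0.07 in WT water.

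The kinase gene cdc2A-2 had its highest mean in WT with water and its lowest in WT with high N. In WT it read 9.49, 9.37, 9.34, 9.25 and 9.45 with water, 9.43, 9.24, 9.01, 9.31 and 9.06 with low N and 9.02, 9.06, 9.31, 8.91 and 8.84 with high N. Of the WT high N arrays, 4 lay below all water arrays, and replicate 3 lay within the water range. In rmc it read 9.36, 9.40, 9.64, 8.95 and 9.21 with water, 9.20, 9.50, 9.33, 9.14 and 8.90 with low N and 9.48, 8.80, 9.34, 9.14 and 8.98 with high N. Replicate 4 of rmc water and replicate 2 of rmc high N, the arrays with the highest PCNA of their groups, had the lowest cdc2A-2 of their groups. The means were 9.38 ± 0.09, 9.21 ± 0.17 and 9.03 ± 0.18 for WT and 9.31 ± 0.25, 9.21 ± 0.22 and 9.15 ± 0.27 for rmc.

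Ordered by group mean, PCNA, P18, CycA1, CycA2 and CycB2 were highest in WT high N, and CycA3 and cdc2A-2 were highest in WT water. P18, CycA1, CycA2 and CycB2 were lowest in rmc low N, and PCNA was lowest in WT water. None of the 35 gaps between neighbouring groups in these orders exceeded the SD within groups. That SD describes single arrays and not means of 5, so this does not test whether neighbours separate. The orders describe means alone. In WT the means of all 7 genes ran in the order water, low N, high N, with 5 ascending and 2 descending. Of all probe sets tested 70.3% did so in either direction, 32.4% ascending and 37.9% descending. In rmc the means of cdc2A-2 alone did, descending, against 38.3% of all probe sets.

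The question put by the high N treatment is how roots respond to a rich patch of ammonium within a day. In WT, 1 of the 6 members tested was called, against 18.3% of all probe sets in either direction and 8.66% higher. PCNA rose 1.98-fold in WT with high N (log2 difference 0.99, SE 0.32, 95% interval 0.33 to 1.64, limma adjusted p = 0.0357), and 5 of 5 high N arrays read above the water mean. Its groups did not overlap, as was true of 17.7% of probe sets in that comparison. The call was lost in 7 of the 10 fits that left out 1 array, namely replicates 1, 2, 3 and 5 of WT water and replicates 2, 4 and 5 of WT high N, with log2 differences of 0.87 to 1.04 and limma adjusted p between 0.0514 and 0.105. Since whole roots were measured, a change in the number of dividing cells and a change in transcript per cell cannot be told apart.

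P18 differed by 1.47 in WT with high N (log2, SE 0.62, 95% interval 0.21 to 2.74), higher on 5 of 5 arrays, but did not pass (limma adjusted p = 0.0894). It was called when only the groups compared entered the fit (adjusted p = 0.0153) or when arrays were weighted (0.00853), and over all 9 other settings the adjusted p lay between 0.00853 and 0.143. The cyclin genes had differences of 1.11 for CycA1 (limma adjusted p = 0.23), 0.66 for CycA2 (0.411) and 0.77 for CycB2 (0.373), and none passed. Array weights alone called CycA1 (1.19, adjusted p = 0.0492). CycA3 differed by -0.10 (limma adjusted p = 0.324). The kinase gene cdc2A-2 differed by -0.35 (SE 0.13, limma adjusted p = 0.0588), lower on 5 of 5 arrays, and was called when replicate 3 of WT high N was left out (-0.42, adjusted p = 0.029). Over 9 other settings its adjusted p lay between 0.00782 and 0.966, and 4 of them called it. The median difference of the 6 members tested was 0.82, and that of all probe sets -0.02.

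In rmc with high N, 0 of 6 members were called, and 4.34% of all probe sets were called by limma. At an unadjusted p under 0.05 there were also 0 members, against 22.8% of all probe sets. PCNA differed by 0.25 (limma adjusted p = 0.676), P18 by 0.83 (0.435), CycA1 by 0.35 (0.788), CycA2 by 0.43 (0.682), CycB2 by 0.31 (0.808), CycA3 by 0.01 (0.964) and cdc2A-2 by -0.16 (0.478). The spread among these rmc arrays was wide. The SD of PCNA in rmc was 0.75 with water and 0.75 with high N, against 0.25 and 0.37 in WT. For PCNA the 95% interval ran from -0.41 to 0.91 and for P18 from -0.44 to 2.1. Both intervals rest on a spread pooled over all 6 groups, so they are as wide as those in WT and leave out the wider rmc spread.

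Averaged over both genotypes, high N against water called 3 of 6 members, at a background of 34.1% of all probe sets in either direction and 16.1% higher. PCNA rose 1.53-fold (log2 difference 0.62, SE 0.23, limma adjusted p = 0.0373), with 7 of 10 high N arrays above the water mean of their genotype. P18 rose 2.22-fold (log2 difference 1.15, SE 0.44, limma adjusted p = 0.0432), higher on 8 of 10 arrays. The fall of cdc2A-2 was 1.20-fold (log2 difference -0.26, SE 0.09, limma adjusted p = 0.0342), with 8 of 10 arrays lower. CycA1 (0.73, limma adjusted p = 0.233), CycA2 (0.54, 0.295), CycB2 (0.54, 0.333) and CycA3 (-0.05, 0.499) did not pass. These averages mix the labelled doses of the 2 genotypes and reuse the water arrays of the comparisons above.

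Each of these calls hung on several arrays. PCNA was called in 10 of 20 fits that left out 1 array, and lost without replicates 1, 2 or 3 of WT water, 2 or 5 of WT high N, 1, 2 or 3 of rmc water, or 2 or 5 of rmc high N (limma adjusted p 0.0547 to 0.0881). P18 was called in 6 of 20, and lost without replicates 1, 2, 3 or 5 of WT water, 1, 2, 4 or 5 of WT high N, 1, 2 or 3 of rmc water, or 2, 4 or 5 of rmc high N (0.054 to 0.0996). The call of cdc2A-2 held in 11 of 20, and was lost without replicates 1 or 5 of WT water, 4 or 5 of WT high N, 1, 2 or 3 of rmc water, or 2 or 5 of rmc high N (0.0539 to 0.08). With only the groups compared in the fit, the adjusted p was 0.0586 for PCNA and 0.0507 for P18, and with no limit on low signal that of P18 was 0.0533. Over 9 other settings it ran from 0.00143 to 0.0586 for PCNA, 0.00144 to 0.0533 for P18 and 0.000941 to 0.0452 for cdc2A-2, which was lower in 8 of them and higher under the scaling to poly-A spikes (0.35, adjusted p = 0.017).

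Several measures of the arrays moved with high N in the same samples. The mean log2 signal of 36 poly-A spike probe sets, which track RNA added before labelling, was 8.47, 8.31 and 8.13 in WT with water, low N and high N, and 8.83, 8.51 and 7.95 in rmc. The GAPDH 3′ minus 5′ log2 difference, a sign of RNA quality, was 0.21, 0.05 and -0.12 in WT and 0.22, 0.07 and -0.14 in rmc. Summed linear signal of the 5 green-tissue genes had medians of 1594, 1064 and 746 in WT (ranges 1110 to 2116, 928 to 1504 and 601 to 1085), and 1740, 1819 and 991 in rmc (1470 to 2066, 1130 to 2610 and 568 to 1496). PSBR made up a median of 88.3% of that sum. Their part in the results was not tested, apart from a scaling to the poly-A spikes.

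That scaling raised the median difference of all probe sets for high N to 0.32 in WT, to 0.87 in rmc and to 0.60 on average, and moved each member by nearly the same amount. Over both genotypes cdc2A-2 then read 0.35 in place of -0.26, so its direction turned. Relative to the median of all probe sets cdc2A-2 stood at -0.25, PCNA at 0.63 and P18 at 1.16, values that this scaling cannot change because it adds 1 constant to all probe sets of an array. In WT alone the PCNA difference became 1.33 and was no longer called (limma adjusted p = 0.135). In rmc 4 of 6 members were then called, as were 85.4% of all probe sets, and over both genotypes 6 of 6, as were 78.1%.

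**Figure D2:**
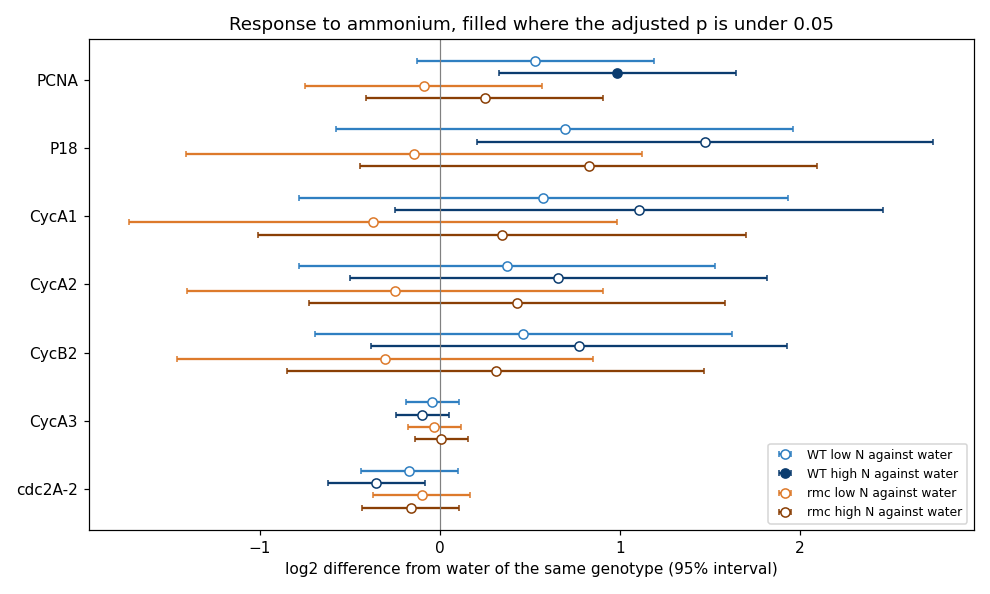
Log2 difference from water of the same genotype (horizontal axis) for the 7 genes, with 95% intervals, for low N and high N in WT and rmc. The 4 comparisons rest on 2 sets of water arrays; the filled point is PCNA in WT with high N (0.99), which alone had an adjusted p under 0.05, and CycB2 comes from the fit without the limit on low signal.

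With low N, 0 of 6 members were called by limma in WT (0.0266% of all probe sets), in rmc (0.0133%) and over both genotypes (0.0531%). None had an unadjusted p under 0.05, against 5.78%, 4.54% and 7.81% of all probe sets in the same order. In WT the estimates were 0.53 for PCNA, 0.69 for P18, 0.58 for CycA1, 0.37 for CycA2, 0.46 for CycB2, -0.04 for CycA3 and -0.17 for cdc2A-2, with limma adjusted p between 0.759 and 0.875. In rmc all 7 estimates were negative, from -0.37 for CycA1 to -0.03 for CycA3, with adjusted p of 0.996 or more, but the signs were not stable. With array weights P18 read 0.71, CycA2 0.60, CycA1 0.58 and PCNA 0.23 (adjusted p 0.659 to 0.784), and several signs also turned under the poly-A scaling or without 1 array. The 95% interval of PCNA in WT ran from -0.13 to 1.19 and in rmc from -0.75 to 0.57. High N against low N called 0 of 6 members in WT (0.0% of all probe sets) and 0 of 6 in rmc (0.704%), again with 0 at an unadjusted p under 0.05, where 8.93% of all probe sets stood in WT and 23.6% in rmc. P18 had the widest of these differences, 0.78 in WT and 0.97 in rmc.

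Between genotypes, 0 of 6 members were called by limma with water (0.478% of all probe sets), with low N (1.95%), with high N (1.09%) or over all treatments (12.3%). At an unadjusted p under 0.05 over all treatments there was 1 member, CycA2, against 27.2% of all probe sets. CycA2 differed by -0.71 between rmc and WT over all treatments (log2, SE 0.33, limma adjusted p = 0.154), with 11 of 15 rmc arrays under the WT mean of their treatment. PCNA differed by -0.32 (limma adjusted p = 0.274), P18 by -0.60 (0.281), CycA1 by -0.59 (0.324), CycB2 by -0.56 (0.29), CycA3 by 0.03 (0.72) and cdc2A-2 by 0.02 (0.905). With array weights, which were estimated from these same signals and not from a separate measure of quality, 4 members were called lower in rmc. They were PCNA (-0.53, limma adjusted p = 0.00697), P18 (-0.78, 0.0354), CycA1 (-0.83, 0.0344) and CycA2 (-0.88, 0.0139). In that fit 28.6% of all probe sets were called.

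The genotypes' N responses were compared directly as an interaction. No member was called for low N (0.0% of all probe sets) or high N (0.0133%). At an unadjusted p under 0.05 there were 0 members, against 2.44% and 1.28% of all probe sets. For PCNA the high N response in rmc minus that in WT was -0.74 (SE 0.45, 95% interval -1.67 to 0.19, limma adjusted p = 0.999). For P18 it was -0.65 (95% interval -2.44 to 1.15) and for cdc2A-2 it was 0.19 (-0.19 to 0.57). These intervals include both no difference and differences as large as the WT responses themselves.

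Differences between samples of the same group outweighed those between groups for all 7 genes. The SD within groups was 1.09 for CycA1, 1.02 for P18 and 0.93 for CycA2, at percentiles 98.0, 97.5 and 96.8 of the 7528 probe sets, and 0.53 for PCNA, at percentile 88.1. For CycB2 it was 0.93. It was 0.21 for cdc2A-2 and 0.10 for CycA3, at percentiles 43.2 and 4.21, where the median of all probe sets was 0.23. The share of variance between groups was 34.3% for PCNA, 30.2% for P18, 26.7% for cdc2A-2, 22.5% for CycA2, 19.5% for CycA1, 18.8% for CycB2 and 12.8% for CycA3, with a median of 28.9% over all probe sets.

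This spread was shared. Once group means were removed, PCNA, P18, CycA1, CycA2 and CycB2 went up and down together over the 30 arrays. Their 10 pairs had Pearson's r from 0.795 to 0.964 and Spearman's rho from 0.793 to 0.969, with permutation p adjusted over 21 pairs of at most 4e-05 for r (1e-05 is the smallest p that 100000 permutations can give). Without the 2 arrays farthest from the median, r ran from 0.703 to 0.950. CycA1 and CycB2 were the closest pair (r = 0.964). All values of an array share its RNA and its scaling.

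**Figure D3:**
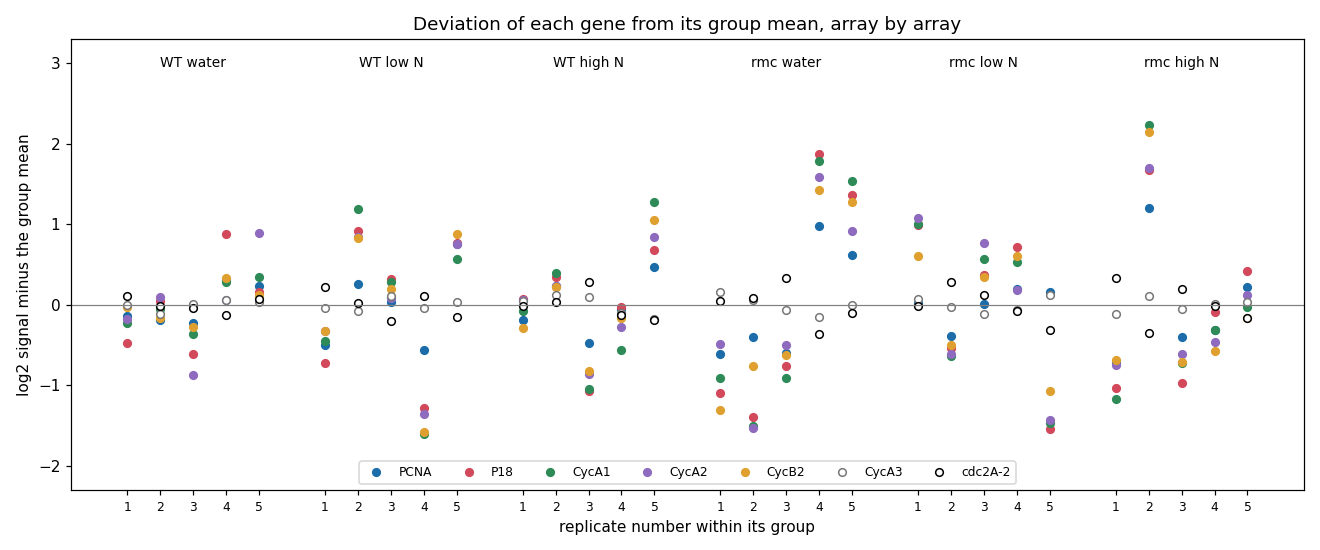
Log2 signal minus the group mean (vertical axis) for each gene on each array (horizontal axis, replicates within groups). Filled points are PCNA, P18, CycA1, CycA2 and CycB2, which deviate together on most arrays, as on replicate 2 of rmc high N, though PCNA lies above 0 on replicate 5 of rmc low N; open points are CycA3 and cdc2A-2.

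The array with the widest shared deviation was replicate 2 of rmc high N, where CycA1 read 8.86 against a group mean of 6.63 and PCNA 10.26 against 9.05. Replicates 4 and 5 of rmc water were also high in these 5 genes, and replicate 4 of WT low N and replicate 5 of rmc low N were low, except that PCNA of the latter was above its group mean. Replicate 2 of rmc high N also had the lowest poly-A spike mean of the 30 arrays, 7.04. The median correlation with the other arrays of the group was lowest for replicate 4 of rmc water (0.946). Replicate 2 of rmc high N came next (0.953).

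In the deposited scaling CycA3 had no correlation with the others that passed. For its 5 pairs with them r ran from -0.171 to 0.019 and adjusted permutation p from 0.538 to 0.929. The kinase gene cdc2A-2 varied inversely with these genes, most with PCNA (r = -0.805, rho = -0.770, adjusted permutation p = 2.33e-05, r = -0.729 without 2 arrays) and least with CycA2 (r = -0.478, rho = -0.483, adjusted permutation p = 0.037, r = -0.398 without 2 arrays). Under the poly-A scaling, which adds a shift common to all genes of an array, the 5 cdc2A-2 correlations turned positive (0.221 to 0.386, adjusted permutation p 0.14 to 0.352). Those of CycA3 with the same 5 genes became 0.510 to 0.774, and all 5 then passed (adjusted permutation p 0.000363 to 0.0403). The 10 pairs of the 5 genes became 0.842 to 0.972. Of the 21 pairs, 15 passed by r and 15 by rho in the deposited scaling.

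**Figure D4:**
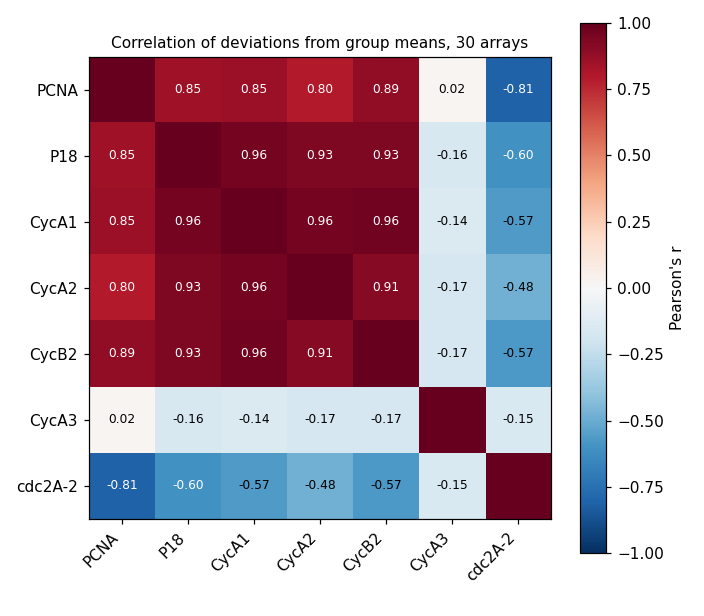
Pearson's r between the deviations of each pair of genes from their group means over 30 arrays (both axes list the 7 genes, colour and printed value give r). The block of 5 genes holds r of 0.795 or more, CycA3 stays near 0 with them and cdc2A-2 is negative with them. When arrays are scaled to the poly-A spikes, cdc2A-2 turns positive with the 5 genes and CycA3 reaches 0.510 to 0.774.

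Over deviations from group means, r was taken with the log2 of the summed linear signal of the green-tissue genes. It was -0.638 for P18, -0.578 for CycA1, -0.573 for CycA2, -0.560 for CycB2 and -0.522 for PCNA (adjusted permutation p 0.007 to 0.0265 over a family of 35, rho -0.638 to -0.547, r without 2 arrays -0.641 to -0.514). For CycA3 it was -0.038 and for cdc2A-2 0.483 (adjusted permutation p = 0.0654), and cdc2A-2 passed by rho alone (0.521, adjusted permutation p = 0.0382). This sum was in the main the signal of PSBR, a photosystem II gene, which made up 62.8% to 94.3% of it (median 88.3%). In a split chosen after seeing the data, r with PSBR alone was -0.576 for PCNA and -0.635 to -0.591 for the other 4 genes (adjusted permutation p 0.00126 to 0.00753 over a family of 14, rho -0.650 to -0.582, r without 2 arrays -0.550 to -0.438), and 0.536 for cdc2A-2 (rho 0.551, adjusted permutation p = 0.0259, r = 0.419 without 2 arrays). With the sum of the other 4 green-tissue genes r lay between -0.247 and -0.026 for the same 5 genes, and no member passed (adjusted permutation p 0.227 to 0.896). With the root markers no member's correlation passed. Measures of the RNA and the spikes also varied with several members. PCNA did so with the poly-A spike mean (r = -0.622, rho = -0.500, adjusted permutation p = 0.0265, r = -0.461 without 2 arrays) and with the GAPDH 3′ minus 5′ difference (r = -0.566, rho = -0.572, adjusted permutation p = 0.0115, r = -0.531 without 2 arrays). With the GAPDH difference P18 (r = -0.493, rho = -0.516, adjusted permutation p = 0.0304, r = -0.465 without 2 arrays) and CycB2 (r = -0.484, rho = -0.523, adjusted permutation p = 0.0329, r = -0.438 without 2 arrays) passed too, and CycA2 (rho = -0.495, adjusted permutation p = 0.0372) and CycA1 (rho = -0.458, 0.0418) passed by rho alone. With the poly-A spike mean cdc2A-2 passed by r (r = 0.569, adjusted permutation p = 0.0265, r = 0.449 without 2 arrays) and CycA3 by rho (-0.465, 0.0418). With the mean of the hybridization spikes, which are added after labelling, PCNA passed (r = -0.595, rho = -0.551, adjusted permutation p = 0.0184, r = -0.504 without 2 arrays), as did CycB2 by r (r = -0.546, adjusted permutation p = 0.0265, r = -0.459 without 2 arrays). What part these measures have in the shared spread was not tested.

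Likeness was measured as r over the 30 arrays among probe sets with a gene symbol. CDKB1, a plant B-type kinase gene of the transition to mitosis, was the most like CycA1 (r = 0.988) and CycA2 (0.961), and came after MKK3 for P18 (0.956). Its relative CDKB2 was among the 3 most like genes for CycA1 (0.975), CycA2 (0.949) and CycB2 (0.957). MKK3, a MAP kinase kinase gene, was the most like P18 (0.962) and was also among the 3 for CycA1 (0.976) and PCNA (0.904). The closest to PCNA was DEM (0.928), followed by LOC544081 (0.909). CycA1 was the most like CycB2 (0.969) and was among the 3 for CycA2 (0.956) and P18 (0.955). CDKB1 was also among the 3 for CycB2 (0.951). For cdc2A-2 the 3 most like were LOC543919 (0.898), cpk1 (0.892) and SPY (0.881). Those for CycA3 were ETR2 (0.45), EIL4 (0.448) and THOX2 (0.446). By another measure, r of deviations from group means, values above 0.8 were found for 376 probe sets with CycA1 (5.0% of those tested). The counts were 328 with P18 (4.36%), 289 with CycB2 (3.84%), 276 with CycA2 (3.67%), 215 with PCNA (2.86%), 149 with cdc2A-2 (1.98%) and 0 with CycA3. Values below -0.8 were found for 305 with PCNA (4.05%), 184 with P18 (2.44%), 126 with CycA1 (1.67%), 114 with CycB2 (1.51%), 62 with CycA2 (0.824%), 12 with cdc2A-2 (0.159%) and 0 with CycA3. Such counts for other probe sets are not given, so these describe the members alone.

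Other cell cycle and replication genes were read from a list of 37 names, of which 9 genes were found on 10 probe sets. With high N over both genotypes 4 of the 10 were called, 2 higher and 2 lower, at the background of 34.1%. The inhibitor gene krp1, whose product blocks cyclin-dependent kinases, fell by 0.28 (log2, SE 0.09, limma adjusted p = 0.0179), and the brighter probe set of the linker histone gene H1 fell by 0.25 (SE 0.07, adjusted p = 0.0119), both positive under the poly-A scaling (0.33 and 0.36). Another inhibitor gene, krp2, rose by 0.31 (SE 0.11, limma adjusted p = 0.0395) and the tubulin gene TUB by 0.62 (SE 0.23, adjusted p = 0.043). The call of krp2 was lost in 13 of 20 fits with 1 array left out, without replicates 1 or 4 of WT water, 2, 3, 4 or 5 of WT high N, 1, 2 or 3 of rmc water, or 2, 3, 4 or 5 of rmc high N (adjusted p 0.0514 to 0.0776). That of TUB was lost in 12 of 20, without replicates 1, 2 or 3 of WT water, 1, 2 or 5 of WT high N, 1, 2 or 3 of rmc water, or 2, 4 or 5 of rmc high N (0.0569 to 0.0913), with no limit on low signal (0.0528) and with only the groups compared (0.0744).

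The mitotic kinase genes CDKB1 (0.78, limma adjusted p = 0.182) and CDKB2 (0.73, 0.218) did not pass, nor did the D-type cyclin gene CYCD3 (0.17, 0.693), the A-type kinase gene CDKA1 (-0.17, 0.206), DDB1, a gene of DNA damage recognition (0.00, 0.956), or the dimmer H1 probe set (-0.08, 0.551). In WT alone 1 of the 10 was called with high N, at the background of 18.3%. There krp1 read 8.45, 8.20, 8.41, 8.55 and 8.63 with water and 7.88, 8.04, 8.21, 7.71 and 8.12 with high N. The groups met at replicate 3 of high N and replicate 2 of water. The gene fell by 0.46 (SE 0.13, limma adjusted p = 0.0188), and the call was lost without replicate 4 of WT high N (-0.39, adjusted p = 0.0561). The poly-A scaling left -0.12 (adjusted p = 0.713).

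**Figure D5:**
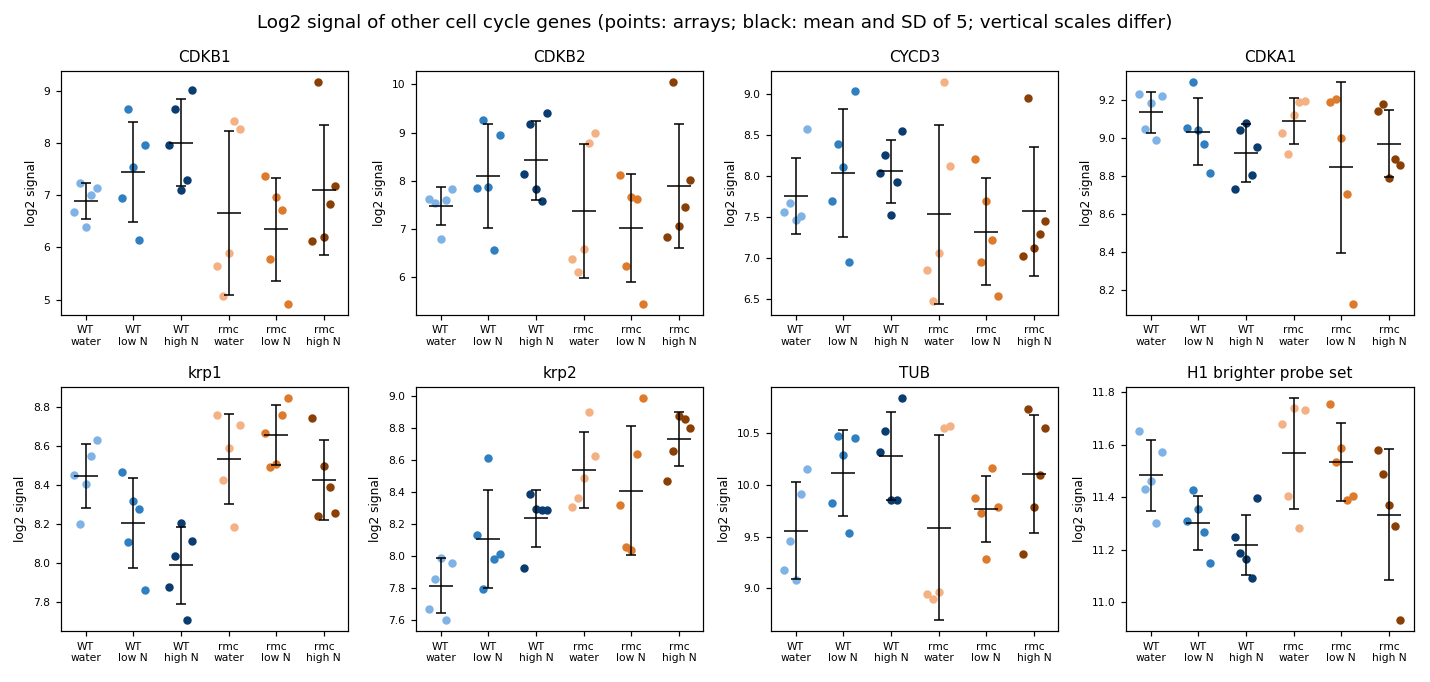
Log2 signal (vertical axes, with different scales) of 8 other cell cycle probe sets in the 6 groups, with points for arrays and black marks for the mean and SD of 5. For krp2 all rmc water arrays (8.31 to 8.90) lie above all WT water arrays (7.60 to 7.99), and CDKB1 and CDKB2 show the spread within groups seen for CycA1.

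Averaged over treatments, both inhibitor genes were higher in rmc than in WT. Over all treatments 3 of the 10 probe sets were called, all higher in rmc, where 4.72% of all probe sets were called higher. The gene krp2 was higher by 0.51 (log2, SE 0.09, limma adjusted p = 0.000599), krp1 by 0.32 (SE 0.07, adjusted p = 0.00421) and DDB1 by 0.16 (SE 0.04, adjusted p = 0.00796), and each was called in 30 of 30 fits with 1 array left out. By treatment, krp1 differed by 0.09 with water (limma adjusted p = 0.944, higher on 3 of 5 arrays), 0.45 with low N (0.0684, 5 of 5) and 0.44 with high N (0.0978, 5 of 5), none of them called. With water, krp2 had log2 signals of 7.67, 7.86, 7.99, 7.60 and 7.96 in WT, while the rmc samples had 8.31, 8.37, 8.49, 8.90 and 8.62. Those groups did not overlap, which held for 2.64% of probe sets. The krp2 difference with water was 0.72 (SE 0.16, limma adjusted p = 0.0332, against 0.478% of probe sets called), and the call was lost without replicates 1, 2 or 4 of WT water or 3, 4 or 5 of rmc water (adjusted p 0.0687 to 0.111), with only the groups compared (0.0595) and under the poly-A scaling (0.36, adjusted p = 0.296). Under the poly-A scaling none of the 3 genes was called over all treatments, with differences of 0.38 for krp2, 0.19 for krp1 and 0.03 for DDB1, where the median of all probe sets moved to -0.13.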

How the data were processed

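Root RNA of 30 samples was hybridised to 1 Affymetrix tomato array each. The deposited values are signals on a log2 scale, made by the authors (MAS5 and Affymetrix Expression Console are both named in the submitters' processing notes, no version given). Back on the linear scale, the 2% trimmed mean of each array is close to 500. The sources used here give no batch or scan date, and precision rests on the number of arrays. Groups came from the labels, which call the samples biological replicates. The members and gene lists were chosen with earlier results of these data known.

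Controls (108 of the array and 63 reporters of 10209 probe sets) and the lowest 25% of the other 10038 by mean signal (log2 under 5.612) were left out, which left 7528. A platform annotation gave 1 symbol for 909 probe sets (802 genes) and none for 9129; 885 matched a RefSeq table of assembly SLM_r2.1, with all 7 members. The other genes were matched by symbol and synonym only. Differences of 6 group means were fitted on the log2 scale to all 30 arrays with limma 3.58.1 in R 4.3.3 (eBayes with trend), two-sided, adjusted by Benjamini-Hochberg over 7528 probe sets at 0.05. CycB2 was adjusted over all 10038 probe sets. Folds are 2 to the power of the log2 difference. Correlations used deviations from group means over 30 arrays, with 100000 two-sided permutations of arrays within groups. Named genes are all 7 members, every list gene found, and the 3 most like each member. Tables were made with Python 3.11.15, pandas 2.3.3, scipy 1.17.1 and matplotlib 3.10.9, and the fit was tested on simulated data. The simulated noise was independent between probe sets, so that test did not cover the spread shared between probe sets seen here. Alternatives were quantile normalization, median centring, scaling to 36 poly-A spike probe sets, no filter, a 50% filter, log2(signal + 16), array weights, only the groups compared, a replicate block and leaving out each array.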

Additional observations from a re-analysis of the deposited data

Results flagged for a closer look

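CycB2 read a log2 signal of 6.914 on replicate 2 of rmc high N, while the other 4 arrays of that group lay between 4.07 and 4.61. Its gap to the nearest array was 0.81 of the group's range, above Dixon's 95% critical value of 0.71 for 5 samples. Of 42 groups of member values examined this was the only one past that value, and chance alone marks about 1 group in 20.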

How the results depend on the processing

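Counts of members called that moved by over 1.5 times were as follows. For high N in WT, 1 member was called, and 0 were with poly-A scaling, 2 with the lowest 50% left out, 4 with array weights, 2 with a replicate block, 3 with only the groups compared, and 0 to 2 with 1 array left out. For high N in rmc the count of 0 became 4 with poly-A scaling. Over both genotypes the count of 3 became 6 with poly-A scaling, 1 with only the groups compared and 0 to 3 with 1 array left out. High N against low N in rmc went from 0 to 2 with poly-A scaling, and rmc against WT from 0 to 1 in high N and from 0 to 4 over all treatments with array weights. Quantile normalization, median centring, no filter and log2(signal + 16) moved no count of members called by over 1.5 times. The count of correlated pairs kept to within 1.5 times in every alternative run, but under poly-A scaling different pairs passed. There the pairs of cdc2A-2 with PCNA, P18, CycA1, CycA2 and CycB2 no longer passed (adjusted permutation p 0.14 to 0.352). All pairs of CycA3 did (0.000363 to 0.0403).

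Reversals of values called in either fit came from poly-A scaling, which by construction shifts every probe set of an array alike; of 224 gene differences, array weights turned the sign of 29, quantile normalization of 5, median centring of 3 and log2(signal + 16) of 1, and fits without 1 array turned signs 174 times, none of them called in either fit. With high N in rmc these were cdc2A-2 (0.72), DDB1 (0.87), CDKA1 (0.76), krp1 (0.77) and H1 (0.65 brighter, 0.81 dimmer). Over both genotypes they were CycA3 (0.57), cdc2A-2 (0.35), CDKA1 (0.45), krp1 (0.33) and H1 (0.36 and 0.53), and for high N against low N in rmc cdc2A-2 (0.51). Reversed r were 0.386 (PCNA), 0.222 (P18), 0.221 (CycA1), 0.265 (CycA2) and 0.282 (CycB2) with cdc2A-2, and 0.533 (P18), 0.516 (CycA1), 0.510 (CycA2), 0.562 (CycB2) and 0.746 (cdc2A-2) with CycA3. Over all probe sets, high N over both genotypes called 2566, against 5879 with poly-A scaling. In WT it called 1374, against 9 with poly-A scaling, 2757 with array weights and 467 to 1681 with 1 array left out; in rmc it called 327, against 6429, 1723 and 52 to 1028.

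The replicate numbers are not stated to pair samples. Over 75 pairs of same-numbered arrays the deviations correlated with a median of 0.111 (-0.615 to 0.653), against -0.022 (-0.75 to 0.752) for 300 pairs of other numbers. Correlations over 0.1 were seen in 40 of the 75 and 101 of the 300. Of 30 arrays, 6 matched their own number best, a count given without a chance level. With a replicate block, the 2 calls for high N in WT were PCNA (adjusted p = 0.0178) and cdc2A-2 (0.0359). Limits include the spread of 5 samples per group, the scaling to a fixed mean, the differing labelled doses and the array measures that moved with high N.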
